A study of Mus musculus with 12 samples.

Results

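3T3-L1 pre-adipocytes grown without macrophages were compared after 24 h and after 6 h of culture with or without stress hormones. The comparison used 8 of the 12 arrays of the series, 4 at 24 h and 4 at 6 h, and only their green (Cy3) channel, which carried the RNA of cells grown alone. 3T3-L1 is a mouse embryo fibroblast line committed to the adipocyte lineage, and it was used here without inducing differentiation. At each time 1 culture was left untreated (NT), 1 received 100 µM serotonin (S), 1 received 100 µM cortisol (C) and 1 received 100 µM of each hormone (CS). The red (Cy5) channel of each array carried cells given the same treatment for the same time with mouse macrophages on the other side of a porous insert. Each condition had 1 culture and 1 array, so the 4 treatments were matched across times and served as the replicates of a time. All p-values therefore measure the spread of the time change between arrays of different treatments. The 24 h arrays lay on one slide and the 6 h arrays on another, each with its own scan, so slide, scan and time cannot be told apart. According to the methods of the study the medium was replaced after 24 h of culture, and how that replacement and the 24 h harvest were ordered is not given in the sources used here.

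Values below are log2 Cy3 intensities after quantile normalization between arrays, and a change is the mean 24 h minus 6 h difference of the 4 matched pairs with its SE. The 24 h arrays had 18443 to 20704 probes well above background and the 6 h arrays had 21126 to 21368. Across probes, which are not independent replicates, each array correlated with the others of its time at a median r of 0.983 to 0.988 at 24 h and of 0.975 to 0.993 at 6 h. The NT array at 6 h stood apart, with that lowest r and with a median signal of 75.2 before normalization, against 40.1 to 49.5 on the other 6 h arrays and 27.0 to 39.4 at 24 h, so results are also given without the NT pair. Of 14 fibroblast and pre-adipocyte markers 13 were well above background on all 8 arrays. The macrophage markers Tyrobp, Ptprc and Adgre1 were well above background on 0, 0 and 1 of the 24 h arrays and on 0, 1 and 0 of the 6 h arrays, whereas Csf1r, Itgam and Cd14 were the 3 of 12 macrophage markers well above background on all 8 arrays. Fcer1g and Ctss were so on 3 arrays of each time and Lyz2 on 2 of each.

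Several arrays went against their hormone labels. Zbtb16, a transcription factor gene strongly induced by glucocorticoids, read 10.71 at 6 h, 10.81 at 24 h and 10.73 at 48 h on the C arrays, against 7.74 at 6 h, 7.95 at 24 h and 7.36 at 48 h on the NT arrays. The arrays labelled S, which should hold no cortisol, read 10.01 at 6 h and 10.02 at 24 h but 7.70 at 48 h. The arrays labelled CS read 10.85 at 6 h and 10.77 at 48 h but only 8.32 at 24 h. Fkbp5 and Tsc22d3, other direct glucocorticoid receptor targets, lay between the NT and C levels on the arrays labelled S at 6 h and at 24 h. The CS array at 24 h read 12.65 for Fkbp5 and 13.13 for Tsc22d3, below every other array of that time. All arrays stayed in the groups that their labels give. The main results are also given without the S pair, without the CS pair and without the 3 arrays in doubt, namely both S arrays of the comparison and the 24 h CS array.

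**Figure D1:**
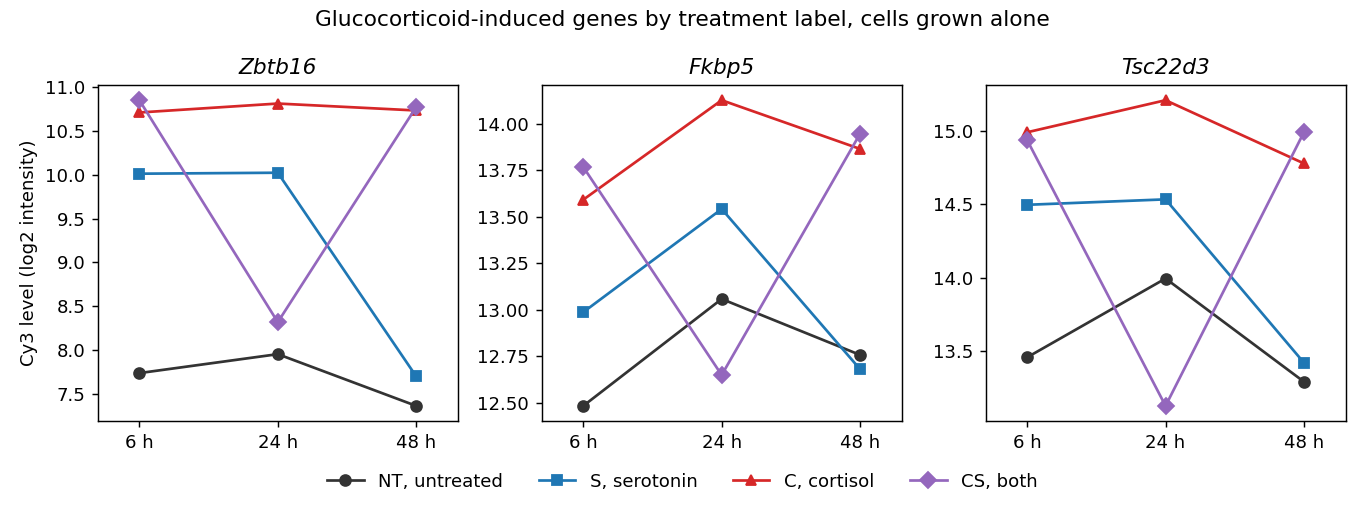
Cy3 level (log2 intensity) of 3 glucocorticoid-induced genes against time in culture (6, 24 or 48 h) in cells grown alone, with 1 point per array and lines joining arrays of the same label. The S arrays lie near the C arrays at 6 h and 24 h for Zbtb16 (10.01 and 10.02) and the CS array at 24 h lies near NT (8.32 against 7.95).

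Of 12763 genes tested, 925 were higher at 24 h than at 6 h (7.25%) and 933 were lower (7.31%) where a call needed both a limma adjusted p below 0.05 and a minimum change of 1.5-fold. The median change over all genes was 0.02 on the log2 scale, with quartiles of -0.26 and 0.31. The 24 h arrays lay all above the 6 h arrays for 1773 genes (13.9%) and all below them for 1852 genes (14.5%). The calls numbered 813 higher and 786 lower without the S pair, 809 higher and 800 lower without the CS pair, 827 higher and 978 lower without the NT pair, and 729 higher and 708 lower without the 3 arrays in doubt. Centring each array on its median in place of quantile normalization put the median of all genes at 0.30 and gave 1283 higher and 292 lower genes, so 81.5% of its calls were higher against 49.8% after quantile normalization. Levels of single genes below are given in the order NT, S, C, CS. The gene lists below were chosen with earlier results of these data known, so their called shares beside that of all genes are descriptive.

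Interferons are cytokines that cells release on sensing viral nucleic acid, and they switch on a battery of antiviral genes through transcription factors that bind the interferon-stimulated response element (ISRE) in promoters. Of 30 measured interferon-stimulated genes 22 rose at 24 h and 0 fell (73.3% called, against 14.6% of all genes). The median of the list was 1.04, against 0.02 for all genes. All 24 h arrays lay above all 6 h arrays for 18 of the 30, and for 13.9% of all genes. The promoters of Rsad2 and Ifit1, and of Cxcl10 from the cytokine and chemokine list below, are shown as examples of genes that rose. The windows run from 250 bases before to 50 after the RefSeq start (GRCm38.p6). They lie at chr12:26456403-26456702 (minus strand, Rsad2), chr19:34640639-34640938 (plus strand, Ifit1) and chr5:92348840-92349139 (minus strand, Cxcl10), and capitals mark the ISRE core GAAANNGAAA on either strand.
Rsad2: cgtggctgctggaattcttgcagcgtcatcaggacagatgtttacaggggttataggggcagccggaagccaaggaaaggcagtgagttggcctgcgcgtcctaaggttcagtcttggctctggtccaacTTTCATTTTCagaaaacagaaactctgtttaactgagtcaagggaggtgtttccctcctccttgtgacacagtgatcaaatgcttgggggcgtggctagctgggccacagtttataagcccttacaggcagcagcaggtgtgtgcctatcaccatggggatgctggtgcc
Ifit1: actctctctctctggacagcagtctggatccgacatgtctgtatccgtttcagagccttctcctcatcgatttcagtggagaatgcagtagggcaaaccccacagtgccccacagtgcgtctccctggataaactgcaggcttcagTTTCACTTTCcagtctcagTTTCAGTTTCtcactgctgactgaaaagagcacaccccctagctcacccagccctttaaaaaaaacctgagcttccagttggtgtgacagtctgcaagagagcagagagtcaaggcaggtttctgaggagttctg
Cxcl10: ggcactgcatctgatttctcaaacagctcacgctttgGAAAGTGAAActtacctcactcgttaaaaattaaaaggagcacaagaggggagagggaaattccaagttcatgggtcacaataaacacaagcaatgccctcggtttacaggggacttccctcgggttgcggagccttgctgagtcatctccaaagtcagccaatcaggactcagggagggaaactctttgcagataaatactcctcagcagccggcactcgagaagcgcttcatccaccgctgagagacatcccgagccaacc
Rsad2 and Cxcl10 held 1 match each and Ifit1 held 2. Among 23 measured members of the interferon list with a window, 14 held the ISRE core (60.9%), as did 10 of the 18 called higher (55.6%). Over all genes with a window it was 1079 of 27025 (3.99%). The list was chosen to hold interferon-stimulated genes, so its higher share does not bear on the change between times. A match describes the letters only and shows no binding.

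Rsad2, which encodes the antiviral enzyme viperin, read 14.28, 13.04, 12.54 and 14.39 at 24 h, against 11.08, 10.49, 10.36 and 10.79 at 6 h. Its rise of 2.88 ± 0.22 (limma adjusted p = 9.23e-04) was the largest of the list and was called in all 28 alternatives tried. Ifit1, whose product binds viral RNA, read 12.79, 11.99, 12.55 and 13.77 at 24 h, against 11.24, 10.95, 11.05 and 11.85 at 6 h. No 24 h value of Rsad2 or Ifit1 fell within the 6 h range, and at 24 h the arrays labelled CS were the highest for both. Ifit1 rose by 1.501 ± 0.14 (adjusted p = 0.0014), Ifit3, of the same antiviral family, by 1.56 ± 0.31 (adjusted p = 0.0114), and Oasl1, a member of the oligoadenylate synthetase family, by 1.62 ± 0.22 (adjusted p = 0.00324). Irf7, the factor that amplifies interferon transcription, rose by 1.30 ± 0.22, and Isg15, a ubiquitin-like protein, by 1.04 ± 0.13. The call of Ifit3 was lost without the NT pair, and that of Irf7 without the 3 arrays in doubt. Oas2 was the only measured member with a negative change, of -0.03 ± 0.12.

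Ifnb1, which encodes interferon beta itself, was among the 12 highest changes by log2 difference. It read 7.46, 6.59, 5.43 and 6.63 at 24 h, against 2.59, 3.20, 2.297 and 2.36 at 6 h, where it was not well above background on any array. Interferon beta was thus at least 4.69-fold higher at 24 h (limma adjusted p = 0.00247), a bound set by the lowest signal well above background on each 6 h array. The gene entered the test through its 24 h arrays alone, so this p is not independent support for the difference. The call was lost without the 3 arrays in doubt (adjusted p = 0.0815). At 48 h Ifnb1 read between 3.99 and 6.19, and 2 of the 4 arrays were well above background. The median of the interferon list, relative to each gene's mean over 24 h and 6 h, was 0.76, 0.09, 0.09 and 0.80 at 24 h, against -0.34, -0.50, -0.62 and -0.44 at 6 h. The NT array and the array labelled CS stood above the other 24 h arrays, and these 2 arrays had the lowest Zbtb16 levels of that time, whose part in the result was not tested. At 48 h the same medians were 0.50, 0.51, -0.06 and -0.21. Counts of called members were 23 of 30 without the S pair, 19 without the CS pair, 15 without the NT pair and 19 without the 3 arrays in doubt, and 12 where no filter on dim probes was set.

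**Figure D2:**
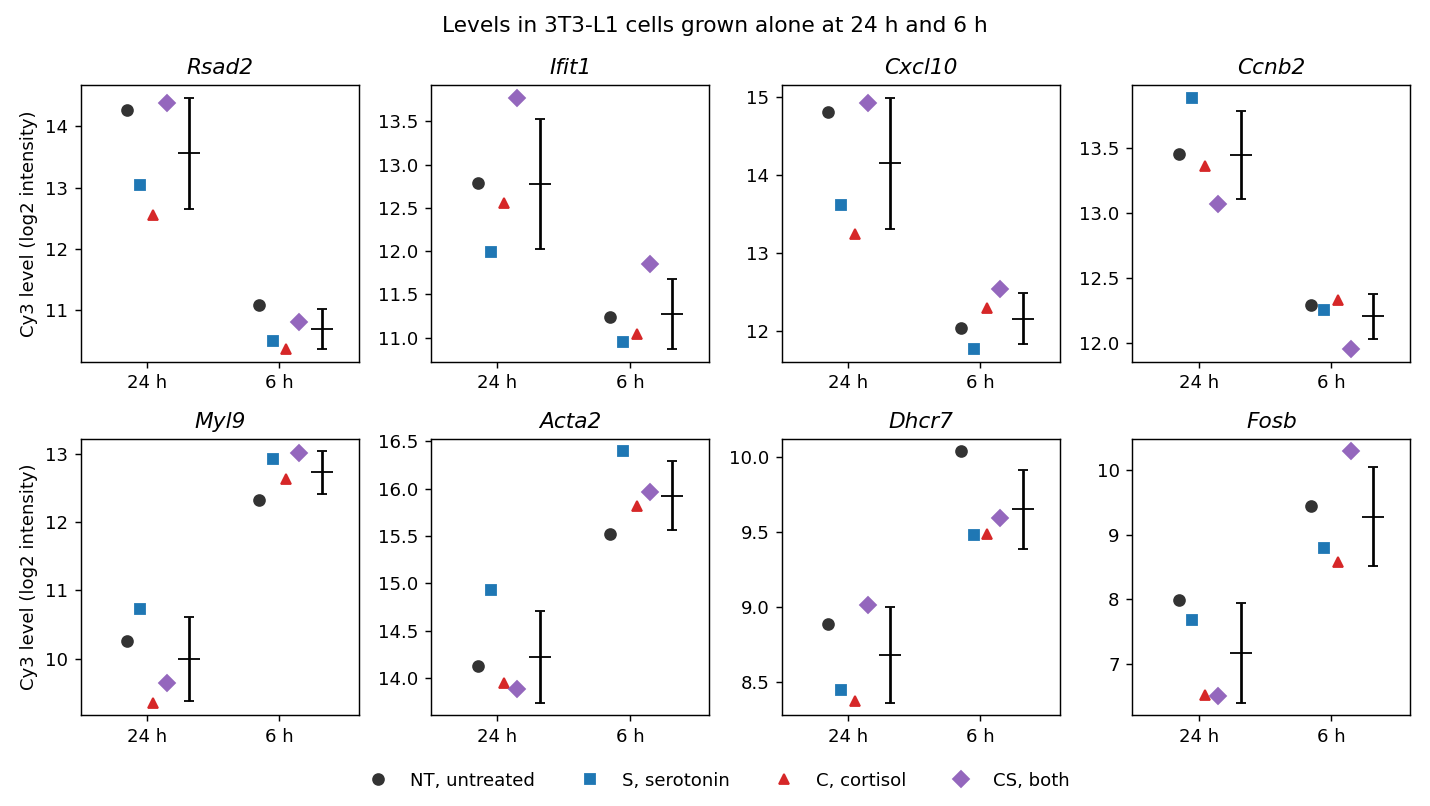
Cy3 level (log2 intensity) of 8 genes in cells grown alone at 24 h (left) and 6 h (right), with 1 point per array and the mean ± SD of the 4 arrays as a bar. Rsad2, Ifit1, Cxcl10 and Ccnb2 lie higher at 24 h and Myl9, Acta2, Dhcr7 and Fosb lower, with no overlap between times in any of the 8 panels.

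NF-kB is the transcription factor that drives most inflammatory cytokine and chemokine genes. Of 28 measured targets, cytokines and chemokines 10 rose and 1 fell (39.3% called, against 14.6% of all genes). Their median was 0.49, and 23 had a positive change. Cxcl10, a chemokine induced by both interferon and NF-kB, read 14.81, 13.61, 13.25 and 14.93 at 24 h, against 12.04, 11.76, 12.29 and 12.53 at 6 h, a rise of 1.99 ± 0.26 (limma adjusted p = 0.0032). Il1a, the alarmin interleukin 1 alpha, read 8.04, 7.24, 6.33 and 8.20 at 24 h, against 4.31, 5.86, 5.47 and 5.19 at 6 h, and rose by 2.25 ± 0.47 (adjusted p = 0.0139). For both genes the NT and CS arrays held the higher 24 h values, and the times did not overlap. Csf3, the granulocyte colony-stimulating factor, rose by 1.47 ± 0.28, the neutrophil chemokine Cxcl1 by 1.13 ± 0.25 and Il6 by 1.21 ± 0.29. The calls of Cxcl1 and Il6 were lost without the NT pair, and that of Il1a without the CS pair and without the 3 arrays in doubt. Csf2, which encodes a related colony-stimulating factor, had a change of 1.47 ± 0.60 that was not called (adjusted p = 0.107), with a C level of 7.03 at 24 h against 7.67 at 6 h. The member that fell was Nfkbiz, an atypical IkB protein, at -0.89 ± 0.13. Without the NT pair or without the CS pair 6 members rose in place of 10, 5 rose after loess and Aquantile normalization, and 3 of 33 rose with no filter on dim probes. Without the CS pair the change was 0.77 for Il6 and 0.75 for Csf2. Of 6 tested macrophage markers 5 had a positive change (median 0.52), 0 were called higher and 1 was called lower, which was Csf1r at -0.62. The summed Cy3 intensity of the 12 markers was 3294 to 4847 at 24 h and 2635 to 3786 at 6 h. Cd14 weighed most in that sum, with mean levels of 11.64 at 24 h and 11.14 at 6 h. The next brightest was Csf1r, at 8.40 and 9.02. The part of these markers in the inflammatory values was not tested.

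Cell division genes were also higher at 24 h. Of 28 measured mitosis genes 15 rose and 0 fell (median 0.62, 53.6% called, against 14.6% of all genes). All 24 h arrays lay above all 6 h arrays for 15, and for 13.9% of all genes. Over the 28 alternatives tried 4 to 19 members rose and 0 fell. Relative to each gene's mean over both times, the list median was 0.116, 0.775, 0.381 and -0.024 at 24 h. At 6 h it was -0.3, -0.185, -0.291 and -0.45. The highest was that of the 24 h S array, one of the arrays in doubt. Ccnb2, a B-type cyclin of mitotic entry, read 13.46, 13.89, 13.36 and 13.07 at 24 h, against 12.29, 12.26, 12.33 and 11.95 at 6 h, a rise of 1.24 ± 0.12 (limma adjusted p = 0.00141). Hmmr, a spindle-associated protein, rose by 1.27 ± 0.14 and Ndc80, part of the kinetochore, by 1.18 ± 0.14. In these genes the S array had the highest level of the 24 h arrays and the CS array the lowest. Mki67, the proliferation marker, read 13.40, 14.00, 13.58 and 12.93 at 24 h, against 13.65, 13.83, 13.55 and 13.47 at 6 h, and was not called (adjusted p = 0.435). RNA came from whole cultures, so more dividing cells and more RNA per dividing cell cannot be told apart. DNA replication genes moved less, with 7 of 29 higher, 0 lower (24.1% called) and a median of 0.18. Rfc4, of the clamp loader, rose by 0.75 ± 0.11, Pola1, the catalytic subunit of DNA polymerase alpha, by 0.75 ± 0.12 and Gins2, of the replicative helicase, by 0.64 ± 0.14. Only 3 replication genes were called without the S pair, where the median was 0.06, and likewise 3 without the C array of either time. The call of Gins2 was lost in 11 alternatives. Ccnd1, the G1 cyclin induced by growth factors, fell by 0.91 on the log2 scale (SE 0.14), with 14.68, 15.36, 14.80 and 14.71 at 24 h, against 15.39, 15.88, 15.99 and 15.91 at 6 h. Btg1, an antiproliferative gene, was called higher by its brightest probe (0.61 ± 0.13), but another probe of it changed by -0.77, so its direction is unsettled.

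**Figure D3:**
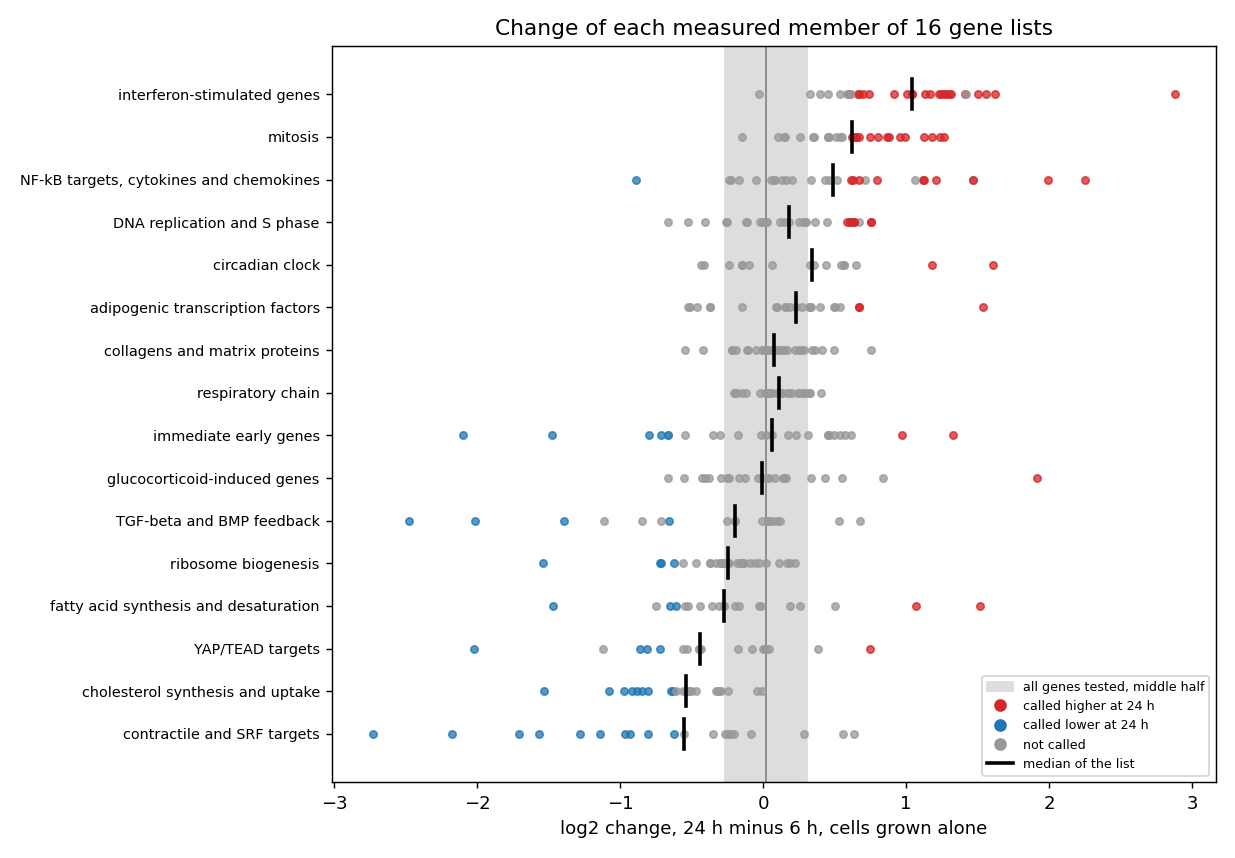
Change of every measured member of 16 gene lists (log2, 24 h minus 6 h, cells grown alone), coloured by call, with the list median as a black bar and the range between the quartiles of all genes (-0.26 to 0.31) shaded. Interferon-stimulated genes (median 1.04) and mitosis genes (0.62) lie to the right, and sterol (-0.54) and contractile genes (-0.55) to the left.

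A part of the contractile genes fell. Serum response factor (SRF) and its actin-sensing coactivators bind the CArG box and maintain actin, myosin and other stress fibre genes in fibroblasts. Of 21 measured contractile and SRF target genes 10 fell and 0 rose (median -0.55, 47.6% called, against 14.6% of all genes). All 24 h arrays lay below all 6 h arrays for 11, and for 14.5% of all genes. Myl9, the regulatory light chain of non-muscle and smooth muscle myosin, read 10.26, 10.72, 9.35 and 9.64 at 24 h, against 12.33, 12.93, 12.63 and 13.02 at 6 h. Its fall of 2.73 on the log2 scale (SE 0.23, limma adjusted p = 0.00115) was called in all 28 alternatives. Acta2, smooth muscle alpha actin, read 14.12, 14.93, 13.95 and 13.88 at 24 h, against 15.52, 16.40, 15.82 and 15.97 at 6 h, a change of -1.70 ± 0.13 (adjusted p = 9.44e-04). The times were more than 1 log2 unit apart in every matched pair of both genes. Actg2, enteric smooth muscle actin, changed by -2.17 ± 0.28, Vcl, the focal adhesion protein vinculin, by -1.57 ± 0.15 and Srf itself by -0.81 ± 0.15. The call of Srf was lost without the 3 arrays in doubt, where its change was -0.45. Tagln, the actin-binding protein transgelin, changed by -1.14 ± 0.20 over the 2 pairs that had no outlier spot, and its call was lost without the C array of either time. Tpm2, a tropomyosin gene, had a change of 0.56 that was under the fold threshold, and another probe of it was called higher at 0.96. Cnn1, a calponin, had the highest change of the list at 0.63 ± 0.30 and was not called (adjusted p = 0.156). Actb, which encodes cytoplasmic beta actin, changed by -0.24 ± 0.12 over 3 pairs and was not called. Without the 3 arrays in doubt 9 contractile genes fell, and after median centring, where all genes had a median of 0.30, 5 fell and the list median was -0.20.

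The promoters of Myl9 and Srf are shown for their CArG boxes, which are in capitals. Myl9 lies at chr2:156775214-156775513 (plus strand) and Srf at chr17:46556113-46556412 (minus strand), again from RefSeq on GRCm38.p6.
Myl9: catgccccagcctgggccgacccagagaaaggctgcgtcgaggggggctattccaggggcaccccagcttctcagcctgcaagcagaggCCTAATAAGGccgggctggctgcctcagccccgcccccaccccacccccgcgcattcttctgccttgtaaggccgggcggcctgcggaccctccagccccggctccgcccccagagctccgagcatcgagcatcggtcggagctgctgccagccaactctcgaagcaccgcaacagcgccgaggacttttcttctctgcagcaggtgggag
Srf: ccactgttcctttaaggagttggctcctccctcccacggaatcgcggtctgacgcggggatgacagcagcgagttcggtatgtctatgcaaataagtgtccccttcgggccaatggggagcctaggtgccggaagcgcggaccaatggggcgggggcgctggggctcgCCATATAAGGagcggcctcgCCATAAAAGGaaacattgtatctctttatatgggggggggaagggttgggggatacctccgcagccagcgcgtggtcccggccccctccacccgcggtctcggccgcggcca
Myl9 held 1 match, beginning 161 bases before the start, and Srf held 2, beginning 82 and 62 bases before it. Of 18 measured members of the contractile list with a window 7 held a CArG box (38.9%), including 5 of the 8 called lower, against 488 of 27025 genes (1.81%). This list was chosen to include SRF targets, so its share against all genes does not bear on the change between times.

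Targets of YAP, another factor that responds to tension in the cytoskeleton, were mixed. Of 18 measured targets 4 fell and 1 rose (median -0.44), a called share of 27.8% against 14.6% of all genes. The count of those that fell ran between 1 and 7 over the 28 alternatives tried, changes of threshold and normalization included. Ccn2, the matricellular connective tissue growth factor, read 11.69, 11.79, 10.90 and 11.08 at 24 h, against 12.26, 14.13 and 14.04 on the NT, S and C arrays at 6 h, where the CS spot was an outlier and left out. The gene fell by 2.02 on the log2 scale (SE 0.44, adjusted p = 0.0191), and the call was lost without the S pair and without the C array of either time. Ajuba, a LIM protein that restrains the Hippo kinases, changed by -0.81 ± 0.12, while Ankrd1, a classical YAP target, rose by 0.75 ± 0.17, a call lost without the NT pair or the CS pair. The times of Ankrd1 overlapped. Of 19 genes of TGF-beta and BMP feedback 4 fell and 0 rose (21.05% called, against 14.6% of all genes). Id4, an inhibitor of basic helix-loop-helix factors induced by BMP, read 8.18, 8.02, 8.61 and 7.71 at 24 h, against 10.66, 10.57, 10.68 and 10.51 at 6 h, a change of -2.48 ± 0.14 (adjusted p = 4.41e-04). Smad6, the inhibitory Smad of BMP signalling, read 8.87, 8.53, 8.80 and 9.10 at 24 h, against 10.63, 10.61, 10.94 and 11.19 at 6 h, a change of -2.01 ± 0.11 (adjusted p = 4.02e-04). The spread within a time was smaller than the time change for both genes, and every 24 h array lay below every 6 h array. Id1 changed by -0.66 ± 0.12, a call that 8 alternatives lost, and Pmepa1, a TGF-beta induced membrane protein, by -1.39 ± 0.32 over 3 pairs, a call lost without the S pair.

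Sterol genes had lower values at 24 h, and 9 of 23 passed the test (39.1%, against 14.6% of all genes). Cholesterol synthesis and uptake is switched on by SREBP2 when membranes are short of sterol. All 23 measured genes had a negative change, the smallest being -0.01 for Sqle, with a median of -0.54. Dhcr7, which makes the last double bond reduction to cholesterol, read 8.89, 8.44, 8.37 and 9.01 at 24 h, against 10.04, 9.48, 9.49 and 9.59 at 6 h, a change of -0.97 ± 0.13 (limma adjusted p = 0.00327). Every 24 h array lay below every 6 h array for it. The demethylase gene Cyp51 changed by -0.92 ± 0.18. The calls of both genes were lost under median centring. Hmgcs1, which makes HMG-CoA, read 14.08, 13.79, 13.62 and 13.51 at 24 h, against 15.20, 13.94, 14.09 and 13.94 at 6 h, and its change of -0.54 ± 0.15 (adjusted p = 0.0385) was under the 1.5-fold threshold. The NT array at 6 h stood above all others, as it did for the list, whose median was 0.76, -0.04, 0.25 and 0.20 at 6 h, each relative to the gene's mean over both times. Called members numbered 15 of 23 without the 3 arrays in doubt, 5 without the NT pair and 5 without the C array of either time. After median centring 1 was called and the list median was -0.22, where the median of all genes was 0.30.

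Fatty acid and storage genes moved both ways. Of 20 measured genes of fatty acid synthesis and desaturation 2 rose and 3 fell (25% called, against 14.6% of all genes). Fasn, fatty acid synthase, read 7.44, 8.28, 7.93 and 7.57 at 24 h, against 9.67, 9.35, 8.92 and 9.17 at 6 h, a change of -1.47 ± 0.21 (adjusted p = 0.00405). Dgat2, which catalyses the last step of triglyceride synthesis, read 15.46, 14.97, 15.002 and 15.35 at 24 h, against 13.25, 13.94, 13.81 and 13.73 at 6 h, a rise of 1.51 ± 0.19 (adjusted p = 0.00272). The 24 h and 6 h values of both genes were separate, in opposite directions. Acacb, the acetyl-CoA carboxylase of mitochondria, rose by 1.07 ± 0.15. Among 13 measured genes of mature adipocytes 3 rose and 1 fell (30.8% called). Lpl, lipoprotein lipase, stood at 0.88 ± 0.09, the lipid droplet protein gene Plin2 at 0.62 ± 0.12 and Apoe, apolipoprotein E, at -1.43 ± 0.16. Of 23 adipogenic transcription factors 3 rose and 0 fell, a called share of 13.0% that was near the 14.6% of all genes. They were Rxra, the partner of PPAR gamma (1.54 ± 0.30), Gata3 (0.67 ± 0.13), which restrains adipogenesis, and Ddit3 (0.67 ± 0.09), which inhibits C/EBP factors. Another probe of Rxra changed by -0.13 and was not called. The call of Gata3 was lost without the CS pair and that of Plin2 without the C array of either time. Pparg, the master regulator of adipocyte differentiation, changed by 0.32 ± 0.09 (adjusted p = 0.0411), under the fold threshold, with 4 of 4 pairs positive.

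Immediate early genes, which growth factors and stress induce within minutes, were split. Of 25 measured 5 fell and 2 rose (28% called, against 14.6% of all genes). Fosb, an AP-1 subunit, read 7.997, 7.68, 6.53 and 6.50 at 24 h, against 9.45, 8.79, 8.59 and 10.29 at 6 h, a change of -2.10 ± 0.40 (limma adjusted p = 0.0097). Fos, its relative, read 9.98, 9.81, 9.52 and 8.95 at 24 h, against 11.05, 10.35, 10.33 and 12.43 at 6 h, a change of -1.48 ± 0.44 (adjusted p = 0.044). The CS array at 6 h was the highest for both genes, and the call of Fos was lost without the NT pair and without the C array of either time. Without the CS pair the change of Fos was -0.81, still called. Nr4a1, an orphan nuclear receptor of the same early class, rose by 1.33 ± 0.19 (adjusted p = 0.00411) and Atf3, a stress-induced factor, by 0.97 ± 0.17. The 24 h and 6 h levels of Nr4a1 overlapped. Egr2 changed by 0.50 ± 0.13 and stayed under the fold threshold. Of 16 circadian clock genes 2 rose and 0 fell, a called share of 12.5%, again near the 14.6% of all genes. Nr1d1, the clock repressor REV-ERB alpha, read 8.22, 7.76, 8.67 and 7.76 at 24 h, against 7.01, 6.43, 6.24 and 6.29 at 6 h, a rise of 1.61 ± 0.23 (adjusted p = 0.00409), and its relative Nr1d2 rose by 1.18 ± 0.13. All 24 h values of Nr1d1 exceeded the 6 h range. Per1, a clock gene that glucocorticoids also induce, changed by -0.24 ± 0.27 and was not called. Of 23 glucocorticoid-induced genes 1 was called (4.35%), which was Cdo1, cysteine dioxygenase, at 1.92 ± 0.32. Fkbp5 changed by 0.14 ± 0.28 (adjusted p = 0.743). It read 13.06, 13.54, 14.13 and 12.65 at 24 h, against 12.48, 12.99, 13.59 and 13.77 at 6 h. Fkbp5 thus rose in the NT, S and C pairs and fell only in the CS pair, whose 24 h array is in doubt.

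**Figure D4:**
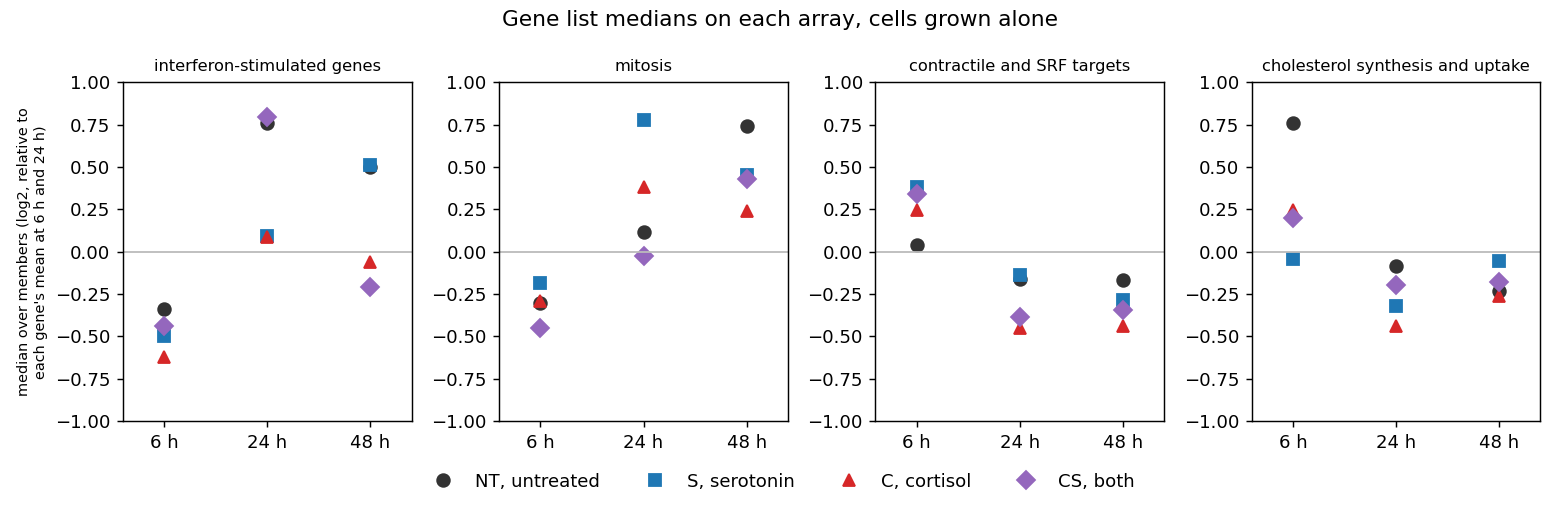
Median over the members of 4 gene lists on each array against time in culture (6, 24 or 48 h, log2, relative to each gene's mean over 6 h and 24 h, cells grown alone), with 1 point per treatment label. The interferon medians run from -0.62 to -0.34 at 6 h, from 0.09 to 0.80 at 24 h and from -0.21 to 0.51 at 48 h.

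Among the 12 highest changes, besides interferon genes, stood genes of several functions. Il4i1, a secreted amino acid oxidase, read 9.5, 9.26, 9.47 and 9.62 at 24 h, against 4.54, 7.07, 7.19 and 7.34 at 6 h, a rise of 2.93 ± 0.45 (limma adjusted p = 0.005). Maob, monoamine oxidase B, read 8.42, 7.97, 7.59 and 8.27 at 24 h, against 6.05, 6.78, 5.72 and 3.44 at 6 h, a rise of 2.57 ± 0.53 that was not called without the NT pair. Every 24 h array lay above every 6 h array for both genes. Pcdh9, a protocadherin, rose by 2.38 ± 0.41, and Gbp5, an interferon-induced GTPase, by 2.46 ± 0.57, a call lost without the CS pair. The chemokine gene Cxcl9 (2.60), the ATP-gated channel gene P2rx7 (2.55) and the Wnt agonist gene Rspo2 (2.83) were well above background on 4 of 4 arrays at 24 h but on 2, 2 and 1 of the 6 h arrays. Sbk3, a kinase gene, was at least 5.10-fold higher and Kcnj2, a potassium channel gene, at least 3.49-fold higher, since neither was well above background on any 6 h array. Both entered the test through their 24 h arrays alone, so their calls are not independent support for the difference. Gja6, a connexin gene with a change of 2.45, was well above background on only 2 arrays at 24 h and 1 at 6 h, and its times overlapped. Another probe of P2rx7 changed by 0.11 and was not called, and the call of the gene was lost with the mean of its probes. The calls of Cxcl9, P2rx7, Rspo2, Kcnj2 and Gja6 were lost without the 3 arrays in doubt.

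The 12 lowest changes included Myl9 and Id4. Kcnq1ot1, a long non-coding RNA of an imprinted locus, read 7.10, 7.65, 6.95 and 7.41 at 24 h, against 9.57, 10.05, 9.69 and 10.34 at 6 h, a change of -2.63 ± 0.14 (limma adjusted p = 4.02e-04). Tnfrsf25, a death receptor of the TNF receptor family, read 6.69, 6.26, 6.58 and 6.53 at 24 h, against 8.97, 9.01, 9.05 and 9.28 at 6 h, a change of -2.56 ± 0.15. The spread within a time was under 1 log2 unit for both, and their calls stood in all 28 alternatives. Pou5f2, a POU domain factor, changed by -2.3 ± 0.19, and Greb1, an oestrogen-induced gene, by -2.32 ± 0.39 with an overlap between its times. Another probe of Greb1 changed by -1.17 and was not called. Dnah10, an axonemal dynein heavy chain (-2.85 ± 0.21), and H2-M9, a class Ib histocompatibility gene (-2.52 ± 0.34), were well above background on 2 arrays at 24 h and 4 at 6 h. Tafa5, a secreted protein gene, was at least 2.82-fold lower, Mical2, an actin-oxidising enzyme, at least 1.67-fold lower and Elapor1, a lysosomal membrane protein gene, at least 1.40-fold lower, none of them being well above background on any 24 h array. Itih3, a hyaluronan-binding serum protein gene, was likewise dim at 24 h, its bound of 1.05-fold was near 1, and 14 alternatives lost its call. Tafa5, Mical2, Elapor1 and Itih3 entered the test through their 6 h arrays alone, so their calls are not independent support for the difference. The calls of Mical2 and Elapor1 were lost without the 3 arrays in doubt, and that of Elapor1 in 10 alternatives in all, among them those without the S pair and without the CS pair. The change of Itih3 was -1.37 without the 3 arrays in doubt.

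Matrix genes stayed close to their 6 h levels. Of 31 collagen and matrix protein genes 0 were called in either direction by limma, with a median of 0.07, and Col1a1, type I collagen, changed by 0.07 ± 0.12 (adjusted p = 0.684). An unadjusted p under 0.05 was reached by 7 of the 31. Of 30 matrix remodelling genes 3 rose and 3 fell (20% called, against 14.6% of all genes). Mmp10, the stromelysin 2 gene (-2.15 ± 0.41), and Timp3, a matrix-bound protease inhibitor (-0.97 ± 0.19), were among those that fell. Has2, hyaluronan synthase, rose (1.02 ± 0.28, a call lost without the NT pair, and 0.62 without the CS pair). So did Mmp2, a gelatinase (0.79 ± 0.16 over 3 pairs, lost without the CS pair). The 24 h and 6 h levels of Timp3 overlapped, as did those of Has2. None of 30 respiratory chain genes was called by limma (median 0.11, 4 with an unadjusted p under 0.05), nor was any of 14 housekeeping genes (median 0.02, 3 with an unadjusted p under 0.05). Ribosome biogenesis had 4 of 30 genes lower, 0 higher (13.3% called) and a median of -0.25. Of 24 growth factors and feedback genes 3 rose and 1 fell (16.7% called). Fgf21, a metabolic hormone, rose by 1.61 ± 0.21 over 3 pairs and Fgf10, a mesenchymal growth factor, by 0.75 ± 0.10. Vegfa, the angiogenic factor, rose by 0.63 ± 0.11 with an overlap between its times, a call lost without the CS pair. The call was also lost with the mean of its probes, another of which changed by 0.44 and was not called. The integrated stress response genes Ddit3 and Ppp1r15a rose by 0.67 ± 0.09 and 0.74 ± 0.10, and 3 of 30 genes of the ER stress and amino acid list rose while 1 fell (13.3% called, against 14.6% of all genes). Gdf15, a stress-induced cytokine, rose by 1.12 ± 0.21 while 2 of 21 p53 and apoptosis genes fell (14.3% called in all).

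The same arrays allowed the time change to be set against that of cells co-cultured with macrophages, since a constant dye bias of a probe cancels between times. The change differed for 17 of 13244 genes, being higher in co-cultured cells for 16 (0.121%) and lower for 1 (0.00755%), all at a limma adjusted p of 0.0495, and 3041 genes had an unadjusted p under 0.05. Smad6 was among the 16, with a change of -0.97 ± 0.07 in co-cultured cells and -2.01 ± 0.11 in cells alone, a difference of 1.05 ± 0.08. Notch1, the signalling receptor, and Efnb1, the ligand ephrin B1, were others, with changes of -0.53 and -0.55 in co-cultured cells and of -2.01 and -1.76 in cells alone. The gene with the lower change was Pcdh10, a protocadherin, which like Notch1 and Efnb1 is named after its values were seen, at 0.71 in co-cultured cells and 1.6 in cells alone. For Rsad2 the changes were 1.61 ± 0.12 in co-cultured cells and 2.88 ± 0.22 in cells alone (adjusted p of the difference 0.0977), and for Cxcl10 0.28 ± 0.13 and 1.99 ± 0.26 in the same order (0.0876). Timp3 rose by 0.83 ± 0.19 in co-cultured cells and changed by -0.97 ± 0.19 in cells alone, a difference of 1.80 that missed the threshold (adjusted p = 0.0575). Mitosis genes had closer values, with Ccnb2 at 1.02 ± 0.11 in co-cultured cells and 1.24 ± 0.12 in cells alone. Leaving out any 1 of the 8 arrays, which also removes a residual degree of freedom, left 0 or 1 gene. Without the treatment block 274 genes differed.

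**Figure D5:**
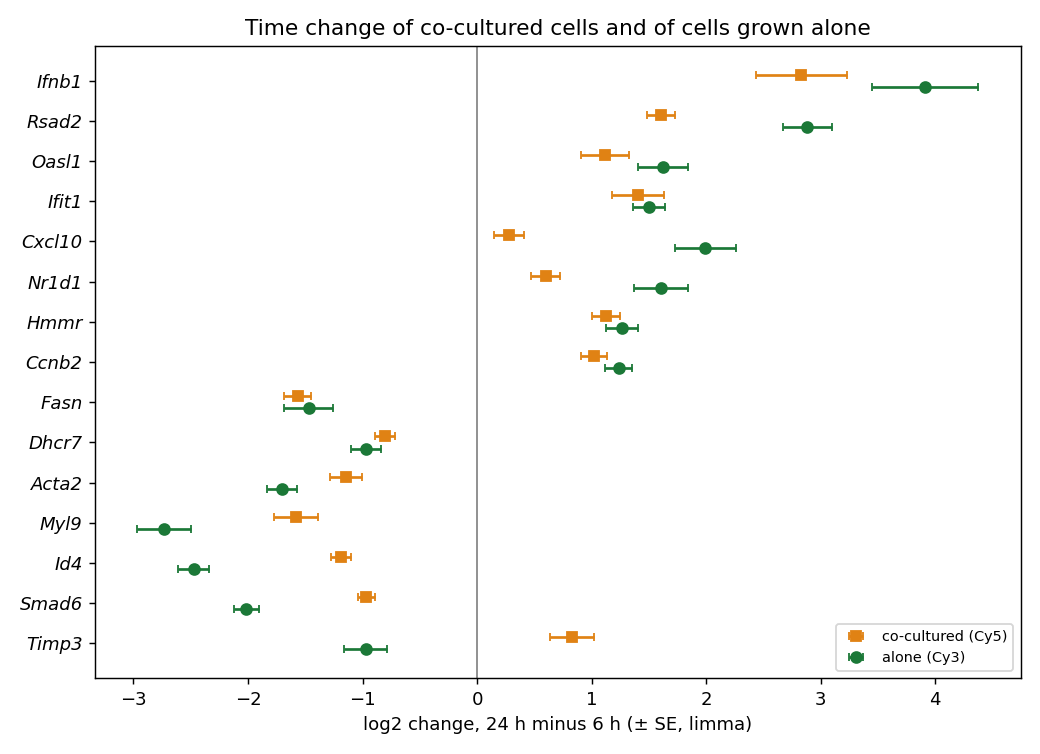
Change between 24 h and 6 h (log2, ± SE from limma) of 15 genes in co-cultured cells (Cy5, squares) and in cells grown alone (Cy3, circles). Smad6 is the only gene of the plot whose difference passed the threshold, with -0.97 against -2.01.

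Whether the time change depended on cortisol was tested by setting the arrays labelled C and CS against those labelled NT and S. Of 12690 genes 0 were called by limma (0%), and 514 had an unadjusted p under 0.05. That fit had 2 residual degrees of freedom, and the arrays in doubt stand on both sides of it.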

How the data were processed

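Labelled RNA of cells grown alone (Cy3) and of co-cultured cells (Cy5) was hybridised by the authors to dual-colour Agilent mouse arrays without dye swap. The deposited files hold spot intensity values, the background-subtracted and dye-normalized processed intensity of each channel, a log10 ratio of Cy5 over Cy3, and other columns with flags for outlier, saturated and well-above-background spots. The file headers name Feature Extraction 10.7.3.1, whereas the notes on processing by the submitters give 10.5.1.1. The value table of the authors equalled the log10 ratio of the scanner files on all 12 arrays (r = 1, median 0).

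Processed Cy3 signals were quantile-normalized over the 12 arrays and taken to log2, and control and outlier spots were left out. Probes had to be well above background on at least 3 of the 8 arrays (20862 of 39429), and 27508 probes were named through RefSeq (GRCm38.p6). The brightest probe stood for a gene. Of 3167 genes with several probes 10 had opposite calls. No spot was saturated. Genes were fitted in limma 3.58.1 (R 4.3.3) with time and treatment (3 residual degrees of freedom, mean trend), two-sided, and p-values were adjusted by Benjamini-Hochberg (calls below 0.05 with a minimum of 1.5-fold). The labels match arrays by treatment, which was the block. Named genes were the 12 highest and 12 lowest called changes that went the same way in all 4 pairs, leaving out clone names and chemoreceptors, up to 3 called members of each of 32 lists, and 14 fixed genes, with further list members named for context. Genes and lists were chosen with earlier results of these data known. Lower bounds used the lowest signal well above background on each array. The normexp alternative (offset 50) started from median spot and background signals. The fit was tested on simulated data. Alternatives are given in the closing section. The number of arrays limits the precision. Some items are not reported here. Figures were drawn with matplotlib.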

Additional observations from a re-analysis of the deposited data

Results flagged for a closer look

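Of 193 groups of 4 arrays tested among the named genes, 7 had 1 array far from the other 3, where chance alone gives about 1 in 20. The NT array at 6 h was the lowest for Il4i1 (4.54, the next being 7.07), Gbp5 (4.11, the next 6.05), Kcnj2 (3.11, the next 3.87) and Pcdh9 (3.1, the next 5.46). It was the highest for Hmgcs1 (15.2, the next 14.1). At 24 h the NT array was the highest for Egr2 (11.3, the next 10.3), and the CS array was the lowest for Ppp1r15a (14.9, the next 15.2).

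The change between 24 h and 6 h differed between co-cultured cells and cells alone by 1.05 on the log2 scale for Smad6, 1.48 for Notch1, 1.21 for Efnb1 and -0.89 for Pcdh10, by a limma test of the difference itself.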

How the results depend on the processing

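Of 2807 pairs of a named gene and an alternative, 2501 kept their call or lack of one, 292 lost the call and 13 gained one. In 1 pair a called gene reversed, which was Btg1 at -0.077 with the mean of its probes. A change of sign in a gene called in neither fit counted as kept, as for Mki67, which ran from -0.25 to 0.19. Calls for the time change in cells alone (925 higher, 933 lower) ran from 718 to 828 higher and from 743 to 981 lower when single arrays were left out. Without a filter on dim probes there were 510 higher and 612 lower, after median centring 292 lower, with no fold threshold 1685 higher and 1735 lower, and at 2-fold 316 higher and 305 lower. Without the treatment block, and so without the pairing, there were 823 higher and 889 lower. No other alternative moved either count by over 1.5 times.

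The count for co-cultured minus alone (17) was 153 after loess within arrays, 0 with the deposited log10 ratio, 274 without the treatment block, 260 with probes well above background on all 8 arrays, 0 to 1 without single arrays and 0 without the CS pair. The cause was not tested. The cortisol count stayed at 0 in both alternatives tried. Leaving out an array also removes a residual degree of freedom. Leaving out the CS pair, the NT pair or the 3 arrays in doubt was chosen after seeing the data, and in the last the CS array at 6 h has no partner and adds nothing. Dim probes at 6 h or 24 h limit several of the highest and lowest changes to bounds.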
